A study of Homo sapiens with 6 samples.

Results

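The HOX genes of mitotic ERRAS cells were described as the 39 genes whose symbol is HOX followed by a cluster letter, A to D, and a number. They were 39 of the 63009 genes that had 1 FPKM value in each of 6 libraries. FPKM relates the fragments of a gene to the length of its transcript and to all mapped fragments of that library. ERRAS cells are early-passage IMR90 cells, a human lung fibroblast line, transduced with oncogenic H-RasV12 fused to the tamoxifen-responsive part of the estrogen receptor. All 6 libraries came from these cells, grown at 3% oxygen in 20% serum and arrested in mitosis with 1 µM DME (Dimethylenastron), which inhibits the spindle motor Eg5. Detached mitotic cells were collected, with a mitotic index above 90%. The 3 libraries of control mitotic cells came from uninduced cells, and the 3 libraries of Ras-induced mitotic cells came from cells given 100 nM tamoxifen to express RasV12 for 4 days. An effect of tamoxifen and an effect of Ras cannot be told apart in this design. The experiment was repeated independently.

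HOX genes encode homeodomain transcription factors that give cells their position along the body axis. They lie in 4 clusters on different chromosomes, and members with the same number, from 1 to 13, are paralogs. Within a cluster, genes at the low-numbered 3′ end are used early and anteriorly in the embryo, and those at the 5′ end late and posteriorly. Adult fibroblasts keep a HOX pattern of the site they came from, and genes of the HOXA and HOXB clusters are known for their part in the developing lung.

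The libraries had the markers of mitotic fibroblasts. All 10 fibroblast markers had a mean of at least 30.7 FPKM, led by VIM at 2199 FPKM, and the 8 mitotic markers a mean of at least 54.4 FPKM. The 10 fibroblast markers summed to 4945 to 5607 FPKM in the controls and 3160 to 4388 FPKM after induction, and the 8 mitotic markers to 1799 to 1865 and 1476 to 1627 FPKM. The 6 epithelial markers summed to 17.0 to 33.0 and 19.6 to 21.2 FPKM, most of it KRT5 and KRT14, with EPCAM, CDH1, SFTPC and SCGB1A1 each under a mean of 1 FPKM. The 5 endothelial markers summed to 14.5 to 16.5 and 4.81 to 5.41 FPKM, nearly all of it TEK, with a mean of 0.0688 FPKM for VWF, and the 5 blood markers never exceeded 0.288 FPKM in sum. The part of these markers in the HOX results was not tested. In the HRAS row the transgene and the endogenous gene cannot be told apart. It averaged 1164 ± 20.3 FPKM in the controls and 1586 ± 226.5 FPKM after induction (SD, n = 3 each). Of 13 known ERK target genes, 9 passed the test as higher and 1 as lower, where 11.0% of all tested genes were higher and 5.67% lower. DUSP4, 1 of the 9, averaged 0.225 and 2.855 FPKM, so it entered the test only through the Ras-induced libraries. Relative to control library 1, the depth of the other libraries was estimated at 0.849 to 1.17. The estimate came from the most frequent ratio of low FPKM values between libraries, and no absolute depth was used here.

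HOX expression in these cells was almost wholly HOXB. With expressed meaning an average of 1 FPKM or more across the 6 libraries, 9 of the 39 HOX genes were expressed: 6 of 10 in HOXB, 2 of 11 in HOXA, 1 of 9 in HOXC and 0 of 9 in HOXD. HOXB members held 93.4% of all HOX FPKM, HOXA members 5.09%, HOXC members 1.52% and the HOXD cluster 0.00741%. HOXB2, HOXB6 and HOXB3, with means of 45.2, 36.7 and 25.4 FPKM, made up between 84.6% and 89.2% of HOX FPKM in each library. Values of this size stood apart from the next member, HOXB7, at a mean of 3.42 FPKM. HOXC4, at 1.04 FPKM, lay just above the limit for expression and HOXA5, at 0.966 FPKM, just under it. A limit of 2 FPKM would have left 5 expressed members, all in HOXB.

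**Figure D1:**
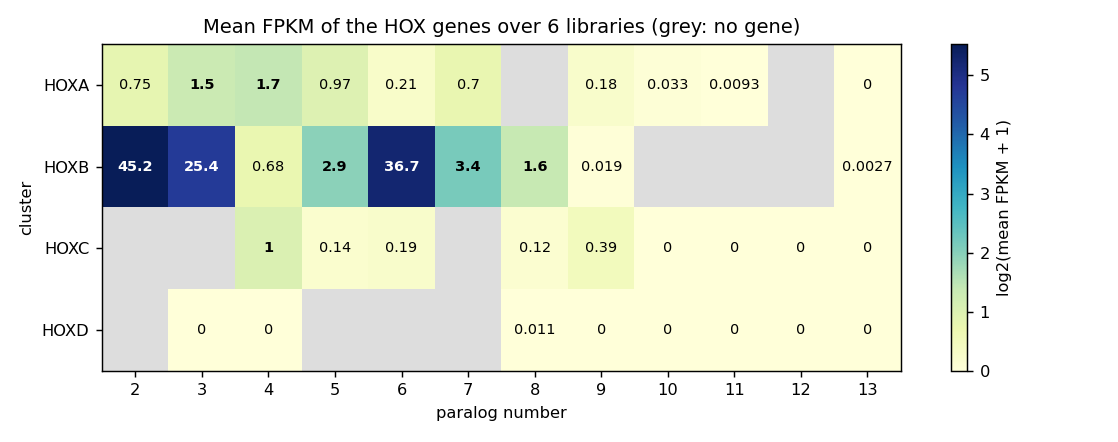
Mean FPKM of each HOX gene over the 6 libraries, by cluster (rows) and paralog number from 2 to 13 (columns), colored by log2(mean FPKM + 1), with expressed members in bold. The darkest squares are HOXB2 at 45.2 FPKM, HOXB6 at 36.7 FPKM and HOXB3 at 25.4 FPKM, and the 8 squares of HOXD are at or near 0.

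The expressed members carried paralog numbers from 2 to 8, and in HOXB they lay in the part nearer the 3′ end, at 12.4 to 82.9 kb from HOXB1 in a cluster whose last gene is at 196.2 kb. Of the 20 members with paralog numbers 2 to 8, 9 were expressed and 17 were above 0 in all 6 libraries. Paralogs 9 to 13, the posterior genes of trunk, limb and genitalia, had 16 members, of which 0 were expressed and 9 were listed at 0 in every library. The highest of these posterior genes was HOXC9 at a mean of 0.394 FPKM. HOXB1 and HOXD1, of the paralog group that acts in the hindbrain, were listed at 0. In all, 26 members had a value above 0 in some library, 19 had one in every library and 13 were listed at 0 throughout: HOXA13, HOXB1, HOXC11 to HOXC13 and all of HOXD except HOXD8. HOXD8 had its only value, 0.0668 FPKM, in Ras-induced library 2. HOXC10 was listed at 0 in 5 libraries and at 7.255e-110 FPKM in control library 1, a value that cannot be told from 0.

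Paralog group 4 shows the range of levels that members with the same number had. Its 4 genes had means of 1.67 (HOXA4), 1.04 (HOXC4), 0.676 (HOXB4) and 0 FPKM (HOXD4). The RefSeq promoters of HOXA4, HOXC4 and HOXD4 are printed here because they belong to 2 expressed paralogs and to 1 listed at 0. Each is the 250 bases before the annotated start on GRCh38.p14, 5′ to 3′ on the strand of the gene, with each CG dinucleotide in capitals, since HOX promoters are known for CpG islands. Of the 39 HOX genes, 20 had a promoter entry. HOXB4 had none, and neither had HOXA5, HOXB2, HOXB3, HOXB5 to HOXB9, HOXB13, HOXC6, HOXC8 to HOXC13 and HOXD9.
HOXA4, chr7:27130758-27131007, minus strand: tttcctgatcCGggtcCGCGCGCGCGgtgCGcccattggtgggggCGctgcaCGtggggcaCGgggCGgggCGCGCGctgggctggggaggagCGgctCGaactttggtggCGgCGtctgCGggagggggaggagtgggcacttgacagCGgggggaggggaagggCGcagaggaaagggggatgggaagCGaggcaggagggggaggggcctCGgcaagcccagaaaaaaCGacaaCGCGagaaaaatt
HOXC4, chr12:54016638-54016887, plus strand: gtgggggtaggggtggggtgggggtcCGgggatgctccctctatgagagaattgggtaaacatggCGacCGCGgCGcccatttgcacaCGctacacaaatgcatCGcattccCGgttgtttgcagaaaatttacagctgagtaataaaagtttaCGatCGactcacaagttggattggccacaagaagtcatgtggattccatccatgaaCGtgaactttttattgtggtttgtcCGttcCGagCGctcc
HOXD4, chr2:176151300-176151549, plus strand: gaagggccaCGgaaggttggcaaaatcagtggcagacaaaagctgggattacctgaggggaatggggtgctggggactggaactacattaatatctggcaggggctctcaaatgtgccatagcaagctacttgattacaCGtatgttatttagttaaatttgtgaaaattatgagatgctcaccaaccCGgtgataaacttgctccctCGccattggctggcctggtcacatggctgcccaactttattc
The HOXA4 window held 26 CG dinucleotides, a count that 19.6% of all 35116 RefSeq promoter windows of this length reach. The HOXC4 window, which is also the one listed for HOXC5 (0.143 FPKM), held 14, which 44.8% of windows reach. The HOXD4 window held 4, which 70.7% of windows reach, while the median window held 11. The order of these counts is that of the levels for these 3 genes, but the wider set of members did not keep it. HOXA13 had 40 CG dinucleotides, a count reached by 2.16% of windows, and HOXD1 had 31, reached by 10.9%, and both genes were listed at 0.
The motif TGATTNAT, the site bound by PBX and HOX proteins together, was searched on both strands and occurred in 2.48% of all windows. Among the HOX members it was found in the HOXA2 and HOXD11 windows. These matches are a description of letters and carry no measurement of binding.

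Ras induction altered 1 HOX gene, HOXB7, which rose. Altered means an adjusted p at or under 0.05 from limma on log2(FPKM + 1), with Benjamini-Hochberg adjustment over the 13993 expressed genes. One altered gene of 9 expressed members stands beside 16.7% of all tested genes, with 11.0% higher and 5.67% lower. HOX members altered lower numbered 0, and 4 of the 9 had an unadjusted limma p under 0.05, the 4 being HOXB3, HOXB5, HOXB6 and HOXB7, beside 33.6% of all tested genes. The median log2 fold change of the 9 members was 0.28, with 8 positive and 1 negative, and that of all tested genes was 0.10, with 62.7% positive. The median of the 6 expressed HOXB genes was 0.41, with all 6 positive. Quantile normalization moved the median of all tested genes to 0.01 and upper quartile scaling to 0.00467, and under both of them the HOXA4 estimate changed sign.

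HOXB7 (ENSG00000260027) encodes an Antennapedia-class homeodomain factor known in melanoma cells as an activator of fibroblast growth factor 2. The gene lies on the minus strand of chromosome 17 from 46684594 to 46710934 (GRCh37), an interval that includes HOXB8 and HOXB9, and its 3′ end lies between those of HOXB6 and HOXB8. Its level was 1.72, 2.41 and 2.18 FPKM in the 3 control libraries and 5.23, 4.67 and 4.32 FPKM in the 3 Ras-induced libraries. The groups did not overlap, and the lowest Ras-induced library was well above the highest control. The mean went from 2.10 ± 0.352 to 4.74 ± 0.459 FPKM (SD, n = 3 each), 2.26-fold on the FPKM scale. On the log2(FPKM + 1) scale, which understates changes of low genes, the rise was 0.89 ± 0.14 (SE, limma adjusted p = 0.0114). HOXB7 was altered under all 14 alternatives tried, with limma adjusted p between 0.00676 and 0.0431. None of its exon bases was shared with another annotated gene on either strand, at 0%. Because these are bulk libraries, a smaller or larger share of cells with the transcript and a different amount per cell cannot be told apart, here and for each gene that follows.

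**Figure D2:**
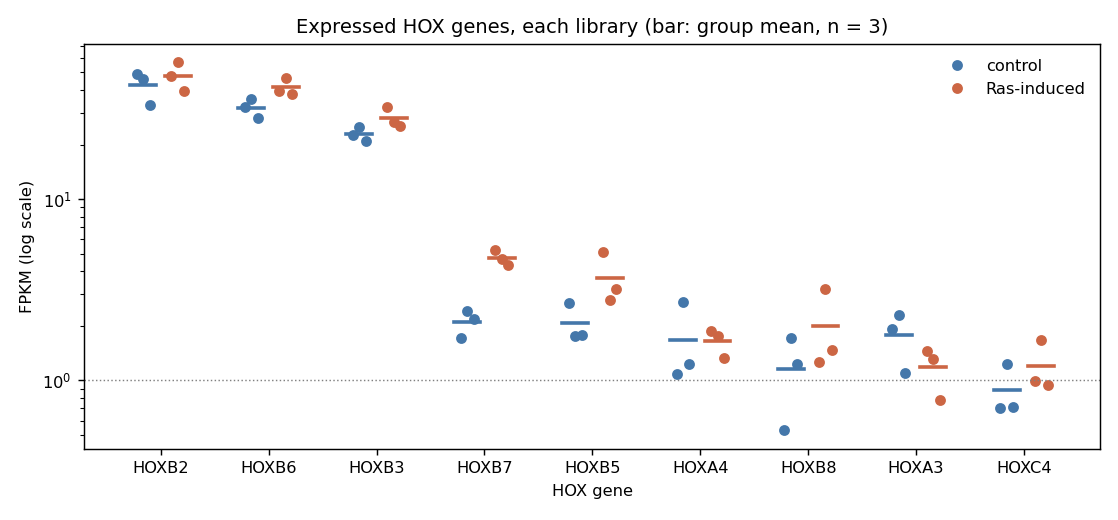
FPKM of the 9 expressed HOX genes in each library on a log axis, with dots for libraries, bars for group means (n = 3) and a dotted line at 1 FPKM. HOXB7 has all 3 Ras-induced libraries, at 4.32 to 5.23 FPKM, above the controls, at 1.72 to 2.41 FPKM, while the groups of HOXB2, HOXB8, HOXA3, HOXA4 and HOXC4 overlap.

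The 3 most abundant members did not pass the adjusted test. HOXB2, which patterns hindbrain segments and cranial motor neurons, was at 48.7, 46.0 and 32.9 FPKM in control and 47.7, 56.8 and 39.3 FPKM in Ras-induced cells. Its groups overlapped. The lowest values were in control library 3 and Ras-induced library 3, whose shared number is not taken to pair them. The log2 difference was 0.17 ± 0.19 (SE, limma adjusted p = 0.559).

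HOXB6, whose paralog group acts in the thoracic region, was at 32.4, 35.5 and 28.0 FPKM in control and 39.7, 46.8 and 37.9 FPKM in Ras-induced cells. Its groups did not overlap, and the means were 31.9 ± 3.74 and 41.5 ± 4.71 FPKM (SD, n = 3 each). The log2 difference was 0.37 ± 0.12 (SE, limma adjusted p = 0.0852). HOXB6 shares 16.3% of its exon bases with the antisense gene HOXB-AS3 and 16.6% with HOXB3, and the library kit kept no strand, so these reads cannot be told apart.

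HOXB3, which acts in the hindbrain and pharyngeal arches, was at 22.5, 25.1 and 20.9 FPKM in control and 32.1, 26.5 and 25.4 FPKM in Ras-induced cells. The lowest Ras-induced library was just above the highest control. The means were 22.8 ± 2.09 and 28.0 ± 3.61 FPKM (SD, n = 3 each), with a log2 difference of 0.28 ± 0.12 (SE, limma adjusted p = 0.148). HOXB3 shares 5.29% of its exon bases with genes on the opposite strand and 6.42% with HOXB4 and HOXB6.

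HOXB5 and HOXB8 were expressed at low levels. HOXB5, known for airway branching in the embryonic lung, was at 2.66, 1.75 and 1.79 FPKM in control and 5.09, 2.78 and 3.21 FPKM in Ras-induced cells. The groups did not overlap, but control library 1 nearly reached the lowest Ras-induced library. The log2 difference was 0.60 ± 0.23 (SE, limma adjusted p = 0.120). HOXB8, known for holding blood progenitors in an immature state, was at 0.530, 1.71 and 1.24 FPKM in control and 1.27, 3.21 and 1.48 FPKM in Ras-induced cells. The highest values were in control library 2 and Ras-induced library 2, which are not taken as a pair, and the groups overlapped. The log2 difference was 0.45 ± 0.32 (SE, limma adjusted p = 0.379).

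Within the HOXB cluster, which spans 200.2 kb, levels did not follow position. HOXB4 and HOXB5, whose 3′ ends lie 47.0 and 62.7 kb from that of HOXB1, had means of 0.676 and 2.88 FPKM. They sit between the abundant HOXB3 at 20.3 kb and the abundant HOXB6 at 67.2 kb. HOXB4, a factor of blood stem cells, was at 0.566, 0.585 and 0.605 FPKM in control and 0.984, 0.549 and 0.768 FPKM in Ras-induced cells, and its groups overlapped. Beyond HOXB8 the level dropped to a mean of 0.0192 FPKM for HOXB9 and 0.00269 FPKM for HOXB13, at 92.6 and 196.2 kb.

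**Figure D3:**
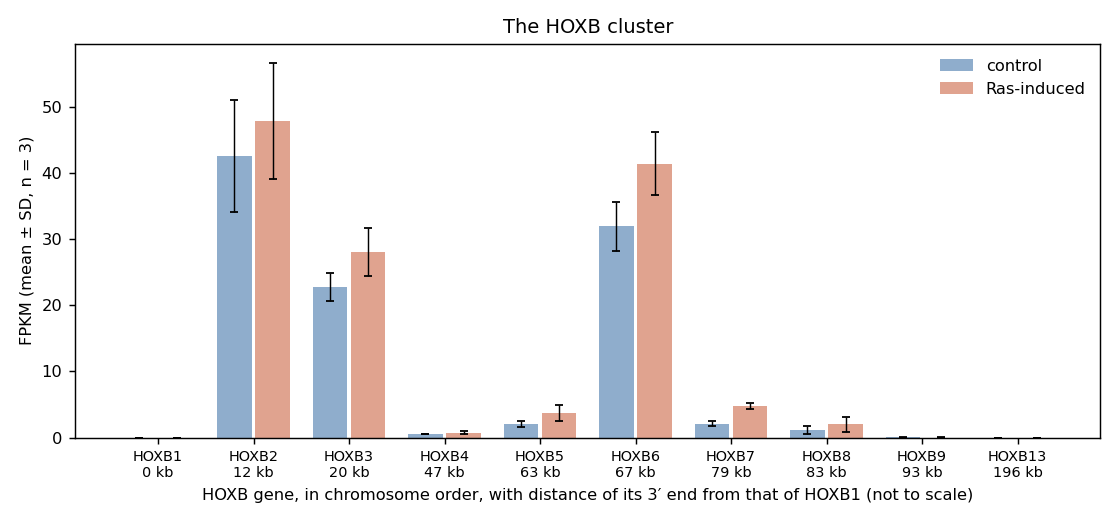
Mean FPKM of the 10 HOXB genes (bars, error bars SD, n = 3) in control and Ras-induced mitotic cells, in chromosome order with the distance in kb of each 3′ end from that of HOXB1. HOXB2, HOXB3 and HOXB6 stand far above their neighbors, and HOXB4 is at 0.676 FPKM between them.

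Summed over the cluster, HOXB FPKM was 109.1, 113.0 and 87.7 in the controls and 132.1, 141.3 and 112.4 after induction. Control library 2 was just above Ras-induced library 3, so the groups overlapped. The ratio of the means was 1.25, or 1.16 after upper quartile scaling. HOXB7 held 1.57%, 2.13% and 2.49% of the HOXB sum in the controls and 3.96%, 3.30% and 3.85% after induction. These shares did not overlap between the groups, whereas the shares of HOXB2, HOXB3, HOXB5, HOXB6 and HOXB8 did.

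The HOXA cluster held 2 expressed genes, both at low levels. HOXA3, which acts in thymus and parathyroid formation, was at 1.91, 2.30 and 1.10 FPKM in control and 1.46, 1.32 and 0.776 FPKM in Ras-induced cells. It was the expressed member with a negative estimate, a log2 difference of -0.33 ± 0.24 (SE, limma adjusted p = 0.389), and its groups overlapped. HOXA4, a member known in lung and vessel wall, was at 1.09, 2.69 and 1.23 FPKM in control and 1.88, 1.77 and 1.33 FPKM in Ras-induced cells. All 3 Ras-induced libraries lay within the range of the controls, and the log2 difference was 0.04 ± 0.26 (SE, limma adjusted p = 0.939). HOXA3 and HOXA4 share 17.3% and 16.5% of their exon bases with antisense genes of the cluster, and 9.29% and 31.3% with other genes on their own strand.

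The HOXA genes under the limit included HOXA5, which the embryonic lung needs for its airways. Its values were 0.675, 1.44 and 0.607 FPKM in the controls and 1.11, 1.20 and 0.762 FPKM after induction. As with HOXA4, the second control library was the highest of all 6. HOXA2 and HOXA7 had means of 0.746 and 0.701 FPKM, HOXA6 and HOXA9 0.215 and 0.182 FPKM, and HOXA10 and HOXA11 0.0333 and 0.00933 FPKM. Of the exon bases of HOXA7, 62.5% are shared with the antisense gene HOXA-AS3. The HOXA sum was 5.46, 8.51 and 5.17 FPKM in the controls and 7.25, 6.27 and 4.95 FPKM after induction, a ratio of means of 0.965 that became 1.16 without control library 2.

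Among the 9 expressed members, the groups of 4, the HOXB genes HOXB3, HOXB5, HOXB6 and HOXB7, did not overlap, with the Ras-induced libraries above in each. This count stands beside 27.1% of all tested genes with the Ras-induced libraries above, 12.8% with them below and 39.9% in either direction.

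HOXC4, known in activated lymphocytes, was the expressed gene of the HOXC cluster. It was at 0.706, 1.23 and 0.709 FPKM in control and 0.992, 1.67 and 0.939 FPKM in Ras-induced cells. The highest values were in control library 2 and Ras-induced library 2, which are not taken as a pair, and the groups overlapped. The log2 difference was 0.22 ± 0.23 (SE, limma adjusted p = 0.537). HOXC4 shares 17.5% of its exon bases with other genes on its own strand, HOXC6 among them. HOXC5, HOXC6, HOXC8 and HOXC9 had means between 0.124 and 0.394 FPKM, and the groups of each overlapped. The HOXC sum was 1.482, 1.931 and 1.504 FPKM in the controls and 2.00, 2.67 and 1.76 FPKM after induction, with the groups overlapping.

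**Figure D4:**
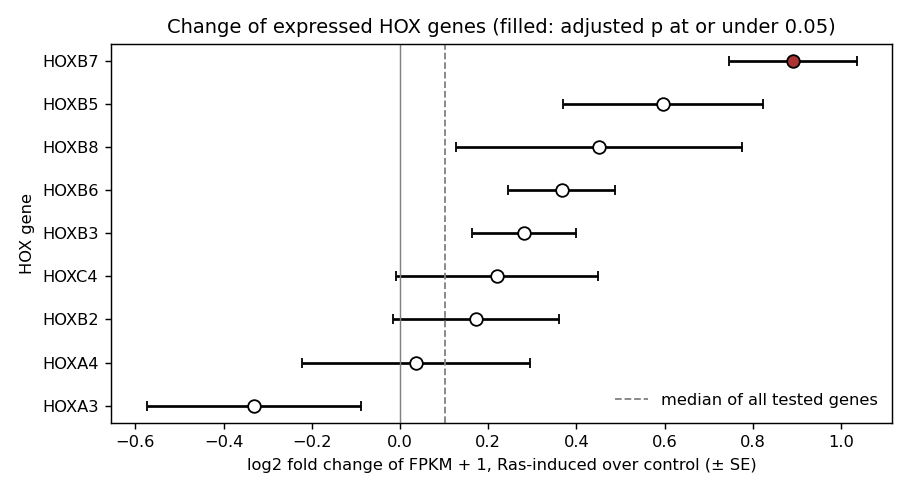
Log2 fold change of FPKM + 1 (Ras-induced over control, ± SE, n = 3 each) for the 9 expressed HOX genes, with the altered gene filled and a dashed line at the median of all tested genes, 0.10. HOXB7 at 0.89 is the filled point, and HOXA3 at -0.33 is the point left of 0.

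The noncoding RNA genes of the HOX clusters were led by HOXB-AS3 and HOTAIRM1. Of 32 names searched, 19 were found, 4 were tested, 0 were altered by limma at an adjusted p of 0.05, and 1 had an unadjusted p under 0.05, beside 16.7% and 33.6% of all tested genes. The median log2 fold change of the 4 was 0.31. HOXB-AS3, antisense to HOXB5 and HOXB6, was the most abundant at 14.6, 15.4 and 12.4 FPKM in the controls and 17.9, 18.8 and 12.9 FPKM after induction. HOTAIRM1, transcribed from the 3′ end of the HOXA cluster, was at 7.04, 11.6 and 4.88 FPKM and at 13.6, 9.78 and 8.09 FPKM. The groups of both overlapped. HOXB-AS1 was at 2.02, 1.06 and 1.08 FPKM and at 2.41, 2.80 and 2.52 FPKM, without overlap, and HOXA-AS3 was listed at 0 in all controls and at 0.120, 0.181 and 0.190 FPKM after induction. These 2 are named because of their values. HOXB-AS1 had a log2 difference of 0.61 ± 0.20 (SE, limma adjusted p = 0.0850). HOXB-AS1, HOXB-AS3 and HOXA-AS3 share exon bases with HOX genes on the opposite strand. The library kit kept no strand, so reads over those bases cannot be told apart. HOTAIR, of the HOXC cluster, was listed at 0.

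TALE homeodomain proteins bind DNA together with HOX proteins. Of 10 TALE names, 8 were found with 6 values, 6 were tested and 1 was altered, higher, beside 11.0% of all tested genes, with a median log2 fold change of -0.10. PBX2 was at 24.7, 26.2 and 23.5 FPKM in control and 34.4, 29.8 and 32.2 FPKM in Ras-induced cells, without overlap. It rose by 0.36 ± 0.09 on the log2 scale (SE, limma adjusted p = 0.0374), and was altered in 4 of 14 alternatives. PBXIP1, a PBX-binding protein and the next most abundant, was at 19.3, 16.5 and 21.2 FPKM in control and 20.1, 14.2 and 12.7 FPKM in Ras-induced cells (limma adjusted p = 0.321).

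MLL/COMPASS and Polycomb proteins are the classical activators and repressors of HOX clusters. Of 14 entries tested on the MLL/COMPASS list, 1 was altered, higher, beside 11.0% of all tested genes. The median log2 fold change was 0.00489. The altered entry, KDM6B, is a demethylase of the Polycomb mark and not a subunit of the MLL/COMPASS complexes. No other entry of this list was altered. KDM6B was at 5.05, 4.00 and 4.49 FPKM in control and 7.996, 7.161 and 6.147 FPKM in Ras-induced cells. It rose by 0.55 ± 0.13 (SE, log2 scale, limma adjusted p = 0.0359), and was altered in 4 of 14 alternatives. The most abundant entries, DPY30 and PSIP1, had limma adjusted p = 0.0972 and 0.176. Of 24 Polycomb genes, 23 were tested, 3 were altered higher and 2 lower, with a median of 0.07. Over all tested genes 16.7% were altered, 11.0% higher and 5.67% lower, so 5 of 23 is near the share of all genes. EZH2, the methyltransferase of the complex, fell from 57.4 ± 1.86 to 24.8 ± 3.16 FPKM (SD, n = 3 each; limma adjusted p = 0.00219). RBBP4, a histone-binding subunit that other complexes share, fell from 50.9 to 30.2 FPKM, and both calls held in 14 of 14 alternatives. PHC2, PCGF1 and CBX8, subunits of the other Polycomb complex, rose by 0.40, 0.65 and 0.96 on the log2 scale. They were altered in 7 of 14, 12 of 14 and 6 of 13 alternatives. CBX8 averaged 0.477 FPKM in control and 1.89 FPKM in Ras-induced cells. It thus reached the limit for testing only through the Ras-induced libraries, and its call carries that selection.

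Retinoic acid is a known upstream signal of the 3′ HOX genes. Of 18 retinoid pathway genes, 9 were tested and 1 was altered, higher, beside 11.0% of all tested genes, with a median of 0.39. RARG, a retinoic acid receptor, was at 6.93, 7.90 and 6.64 FPKM in control and 17.6, 15.7 and 14.2 FPKM in Ras-induced cells. It rose by 1.05 ± 0.11 (SE, log2 scale, limma adjusted p = 0.00378) and was altered in 14 of 14 alternatives. The most abundant genes of the list, the retinaldehyde dehydrogenase gene ALDH1A3 and the receptor gene RXRB, had limma adjusted p = 0.111 and 0.191.

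The genes outside the clusters had their own changes. Of 17 flanking genes, 11 were tested, and 5 were altered, all higher, with a median log2 fold change of 0.13, beside 11.0% higher and a median of 0.10 over all tested genes. HIBADH beside HOXA rose from 19.3 to 30.8 FPKM, SMUG1 and ATP5G2 beside HOXC from 13.4 to 20.1 and from 175.1 to 214.9 FPKM, and ATP5G3 and MTX2 beside HOXD from 171.5 to 243.5 and from 24.7 to 30.3 FPKM. The number altered fell to 3 after upper quartile scaling and to 0 without Ras-induced library 3, and MTX2 was altered in 0 of 14 alternatives. These expressed flanking genes of HOXD stood beside a HOXD cluster with 8 of 9 genes listed at 0. HNRNPA1 beside HOXC, at the highest level of the 17 flanking genes, averaged 881.2 and 841.7 FPKM (limma adjusted p = 0.552).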

How the data were processed

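Poly(A) RNA of 6 libraries was measured by RNA-seq (TruSeq v2, no strand kept). The authors trimmed reads (Trim Galore 0.3.0), aligned them to hg19 with TopHat2 and deposited FPKM values per gene and library made with Cufflinks, with Ensembl build 73 gene names. The paper's main text gives no scaling between libraries, and the counting of reads in overlapping genes is not given in the sources used here. The authors' Cuffdiff comparison holds fold changes, p-values and q-values, which were not used. The table has 63129 genes. The 120 rows with more than 6 values, the 18 unnamed columns holding their extra values and 1 repeated header row were left out. Since a column's name shows its group and a number, and no sample, libraries were used as unordered replicates.

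Expressed genes (average of 1 FPKM or more) entered a two-sided limma 3.58.1 fit of log2(FPKM + 1) under R 4.3.3, with lmFit, eBayes with trend and group as the sole term, adjusted by Benjamini-Hochberg at 0.05. The procedure was tested on simulated data. Tables and figures were made with Python 3.11.15, pandas 2.3.3, numpy 2.4.6 and matplotlib 3.10.9. Coordinates and exon overlaps come from GENCODE 44 on GRCh37, the build of hg19, matched by identifier for all 39 members. Promoters are RefSeq on GRCh38.p14. The HOX genes and the other lists were chosen with earlier results of these data known. All HOX genes could be named, and from each of the other lists up to 6 altered genes by size of change and the 2 at the highest mean. Same-numbered libraries deviated together with correlations of -0.0027 to 0.0481, short of the 0.1 needed to treat the numbers as pairs. Alternatives were a pseudocount of 0.1, 3 other filters, quantile and upper quartile scaling, no trend, a replicate block and each library left out.

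The labels give 100 nM tamoxifen as the inducing dose, and the paper's methods state another. Not every gene is reported singly here.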

Additional observations from a re-analysis of the deposited data

How the results depend on the processing

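HOXB7 remained altered in every alternative, and the number of altered HOX genes was 1 in each of the fits with 1 library left out. With the replicate block the number was 2, HOXB6 joining HOXB7; the numbers do not pair the libraries, so this is a hint at most. The block left 0 TALE, 2 retinoid and 3 flanking genes altered. The sign of HOXA4 turned to -0.034 under quantile normalization and -0.0307 under upper quartile scaling. With 1 library left out it ranged from -0.12 to 0.29, and was -0.07 without control library 3 and -0.02 without Ras-induced library 1. The expressed members numbered 8 to 10 with 1 library left out and 5 at a limit of 2 FPKM. The ratio of HOXA sums ranged from 0.879 to 1.16 with 1 library left out, 1.16 being without control library 2.

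The other lists were less stable. With 1 library left out, the altered genes numbered 0 to 1 of the TALE list, 0 to 0 of MLL/COMPASS, 2 to 4 of Polycomb, 1 to 2 of retinoid and 0 to 2 of flanking genes. PBX2 kept its call in that series without Ras-induced library 2 alone. Quantile and upper quartile scaling left 0 TALE and 0 MLL/COMPASS genes altered, and upper quartile scaling 3 flanking genes. With a mean limit of 0.1 FPKM, 0 MLL/COMPASS and 3 flanking genes were altered. With no limit beyond 1 library above 0, the numbers were 1 noncoding, 0 TALE, 0 MLL/COMPASS, 3 Polycomb and 2 flanking genes. Without a trend they were 0 TALE, 2 retinoid and 3 flanking genes, and 2 retinoid genes were altered where 3 libraries had to reach 1 FPKM. Those counts are small, and the cause was not tested.

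Over all genes, 1543 were altered higher and 793 lower, against 1044 and 1109 under quantile normalization and 921 and 1101 under upper quartile scaling. The number altered was 998 to 1956 with 1 library left out, the lowest without Ras-induced library 3, and 1518 with no limit beyond 1 library above 0. No read counts were used here, so the counting error of members under 1 FPKM is unknown.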

Other observations

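Other transcription factors of lung and limb mesenchyme were led by PRRX1. Of 15 such genes, 9 were tested, 4 were altered, all higher, beside 11.0% higher of all tested genes, and the median log2 fold change was 0.55, beside 0.10. PRRX1, a limb and craniofacial mesenchyme factor, rose from 38.5 ± 6.49 to 113.8 ± 14.9 FPKM (SD, n = 3 each; limma adjusted p = 0.00267). TWIST2 rose from 6.72 to 19.3 FPKM, TBX3 from 30.5 to 53.4 FPKM and TWIST1 from 10.5 to 15.9 FPKM, and each of the 4 was altered in 14 of 14 alternatives. TBX2 averaged 72.72 and 62.04 FPKM (limma adjusted p = 0.377).

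The ParaHox genes, sister genes of the HOX clusters, were not expressed: of 6, 4 were listed at 0 and the highest mean was 0.0357 FPKM, for CDX2. Among microRNA entries of the HOX clusters, MIR615 was listed at 52.8 FPKM in Ras-induced library 1 and at 0 in the 5 other libraries, MIR10A averaged 0.177 and 0.160 FPKM, and MIR10B, MIR196A1, MIR196A2 and MIR196B were listed at 0.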
